A study of Mus musculus with 63 samples.

Results

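Tumours that were taken whole were compared with the larger clone cut out of tumours of mixed Confetti colour, in which regions of different colours, or coloured and unlabelled regions, lay side by side. The members were 43 of the 63 libraries in the series. They comprised 23 undivided tumours, whose titles carry a tumour number and no clone letter, and 20 major clones, chosen by title from the tumours that were dissected into an a and a b part. All tumours came from the small intestine of 2 mice, a female (titles beginning dwba2.2d) with 10 undivided tumours and 10 major clones, and a male (dwaj1.3a) with 13 undivided tumours and 10 major clones. Mouse and sex therefore cannot be told apart. Both mice were labelled Apchet, which the study made as Villin-creERT2; Apc fl/+; Rosa fl/Confetti on a C57BL/6 background. Cre driven by the Villin promoter acts in the intestinal epithelium, so the stroma in a sample kept both Apc alleles. Every mouse was older than 8 weeks at induction with 4 mg tamoxifen and was given 200 mg/kg N-ethyl-N-nitrosourea (ENU), a mutagen, 10 days afterwards. The labels did not say which undivided tumours were monoclonal. By position along the bowel, the undivided tumours held 12 samples labelled SI10 and 11 labelled SI20, and the major clones held 7 from SI10, 11 from SI20 and 2 from SI30. The labels disagreed for female tumour 22, whose major clone was labelled SI20 and whose minor clone was labelled SI10. Its major clone was kept as SI20.

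The Apc protein is part of the complex that marks beta-catenin for destruction. When the remaining allele is lost, beta-catenin accumulates in the nucleus and keeps WNT target genes of the crypt base active. A tumour sample holds the mutant epithelium, with its stem-like, secretory and absorptive cells, together with the fibroblasts, vessels and immune cells around it. The Confetti allele recombines at random to 1 of 4 fluorescent proteins, a colour that all descendants inherit. In this model most cells stay unlabelled, so a clone may carry any colour or none.

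The summed normalised counts of a library lay between 26559102 and 45909885 in the undivided tumours and between 27072894 and 37617414 in the major clones. These values were already scaled between libraries, so the read depth behind them is unknown. Epithelial markers were high in every library: Epcam, an epithelial adhesion molecule, ranged from 31001 to 74424 normalised counts in the undivided tumours and from 36952 to 63025 in the major clones, and Vil1, a brush border protein, from 14077 to 60039 and from 17564 to 50309. Markers of fibroblasts (Col1a1, Pdgfra), vessels (Pecam1, Cdh5), leucocytes (Ptprc) and smooth muscle (Des) were above 0 in all 43 libraries. The share of Rn18s, the 18S ribosomal RNA, had a median of 3.12% and a highest value of 19.4% in the undivided tumours, against 1.24% and 13.1% in the major clones. It exceeded 10% in 7 undivided tumours, of which 6 came from the male, and in 1 major clone. On the leading principal component after the mouse means were removed (21.1% of the variance), male undivided tumours 15, 5, 18 and 17 and male major clone 19 lay farthest out at the same end. List medians that moved by much are also given without the 8 libraries over 10% Rn18s, or with undivided tumours numbered 1 to 10 in each mouse.

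The reporter transcripts are given as a description only, since the dissected clones had been cut out by colour. In all 23 undivided tumours a single reporter led, at 3138 to 34774 normalised counts, and it made up a median of 87.8% of the sum of the 4 reporters (lowest 58.9%). EYFP led in 15 of them and tdimer2, the red reporter, in 8, with neither hrGFP nor mCerulean leading in any. The EYFP values of its 15 tumours ran from 3700 to 34774, and the tdimer2 values of its 8 tumours from 3138 to 5622. The major clones were more varied. In 11 of 20 the leading reporter exceeded 3000 normalised counts: hrGFP in 4, EYFP in 3, tdimer2 in 3 and mCerulean in 1. In the other 9 the highest reporter lay between 393 and 1427, and no major clone lay between 1427 and 3562. Of these 9, 6 were from the female. EYFP and mCerulean are near-identical variants of the same protein, so reads may have been split between them.

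**Figure D1:**
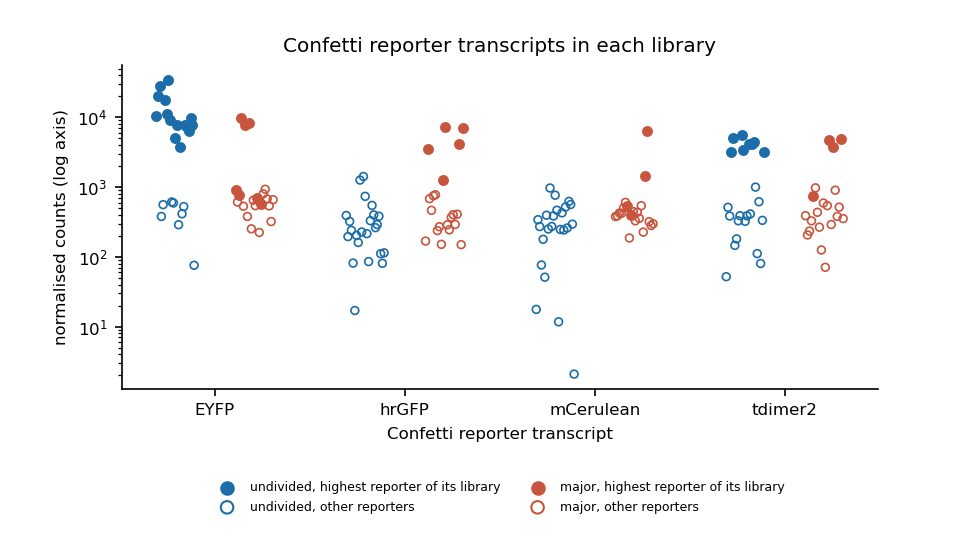
Normalised counts (log axis) of the 4 Confetti reporter transcripts in the 23 undivided tumours (blue) and 20 major clones (red). Filled points mark the highest reporter of each library; in the undivided tumours all filled points lie above 3000 and belong to EYFP or tdimer2.

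The main comparison asked which genes were expressed differently between tumours taken whole and major clones cut from other tumours. Every major clone came from a dissected tumour of mixed colour, so dissection and the kind of tumour cannot be told apart. Of 16510 genes tested with limma on log2(normalised count + 1), with the mouse as a covariate, 2 differed at an adjusted p under 0.05, or 0.0121%. Without adjustment, 795 genes (4.82%) were higher and 1178 (7.14%) were lower in the undivided tumours at p under 0.05. The median log2 difference over all genes was -0.0097, and 47.8% of genes had a positive difference. When each library was scaled to the same sum, the median became -0.098 and 8.95% of the genes with an unadjusted p under 0.05 were higher, against 40.3% on the scale of the files and 50.6% after quantile normalization. After the mouse was taken out, class held 7.86% of the variance over all genes (permutation within mice, two-sided by construction, p = 0.0203), whereas the mouse held 10.9% of the total. With undivided tumours 1 to 10 the class share was 7.19% (permutation p = 0.062), which missed the threshold.

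Arl5a, a small GTPase of the Golgi, rose in the undivided tumours. The gene lies on chromosome 2 from 52287960 to 52314921 (GRCm39, minus strand). Its normalised counts were 3255 at the lowest, 5412 at the median and 7748 at the highest in the undivided tumours, and 2739, 3879 and 6003 in the major clones. The ranges overlapped, but 22 of 23 undivided tumours lay above the median of the major clones of their own mouse. The log2 difference was 0.40 (SE 0.075, adjusted p = 0.0382), a 1.32-fold difference, with 0.36 in the female and 0.44 in the male. The call lay near the threshold: when each of the 43 libraries was left out in turn, the difference stayed between 0.37 and 0.43, but Arl5a passed in 15 fits, with adjusted p-values of 0.00915 to 0.1. Without the 8 libraries over 10% Rn18s the difference was 0.34, with an adjusted p of 0.478.

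The genes next in order did not pass and are given by their values. Among genes higher in the undivided tumours, Bnip5 had a median of 1471 normalised counts against 833 (log2 difference 0.68, SE 0.15, adjusted p = 0.132), and 21 of 23 undivided tumours lay above their own mouse's median. Rnf146, a ubiquitin ligase that acts on axin in the WNT pathway, had medians of 760 and 684 (0.18, adjusted p = 0.132). Nudt4, a hydrolase of inositol pyrophosphates, had medians of 4122 and 3525 (0.31, adjusted p = 0.137). Among the lower genes, Pdia3, a disulphide isomerase of the endoplasmic reticulum, ranged from 12881 to 24796 normalised counts in the undivided tumours and from 18317 to 26824 in the major clones (log2 difference -0.27, SE 0.055, adjusted p = 0.0987). All but 1 undivided tumour lay below their own mouse's median. Gys1, a glycogen synthase, had medians of 789 and 1043 (-0.39, adjusted p = 0.132). Fndc1, which carries fibronectin type III domains, had medians of 24.5 and 107 (-2.04, SE 0.45, adjusted p = 0.132) and was listed at 0 in male undivided tumours 2, 5 and 15. Its difference was -0.75 in the female and -3.18 in the male.

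**Figure D2:**
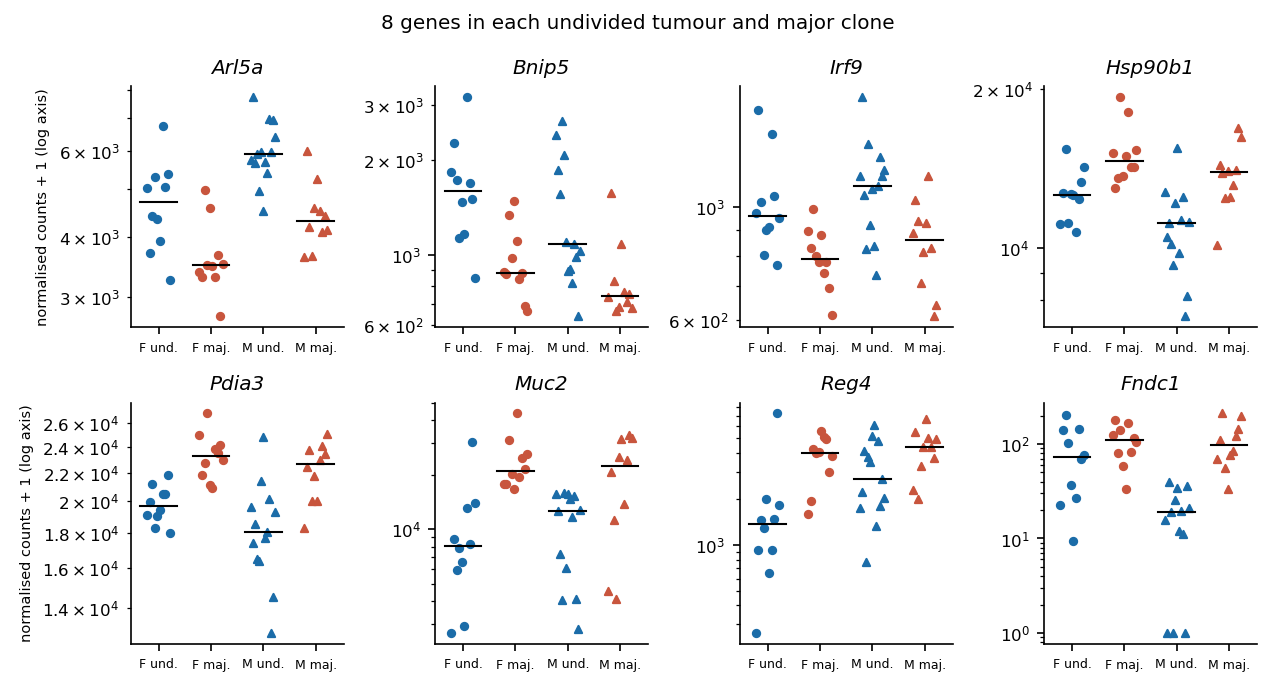
Normalised counts + 1 (log axes) of 8 genes in each library, for the undivided tumours (und., blue) and major clones (maj., red) of the female (F, circles) and male (M, triangles); black bars are medians. The classes overlapped for all 8 genes, also for Arl5a, which passed the test.

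Gene lists of cell types and pathways showed where many small differences pointed the same way. None of the 29 lists held a gene that passed after adjustment. Their members are therefore described by the count at an unadjusted p under 0.05, read against 4.82% higher and 7.14% lower over all genes, and by the list median, read against -0.0097.

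**Figure D3:**
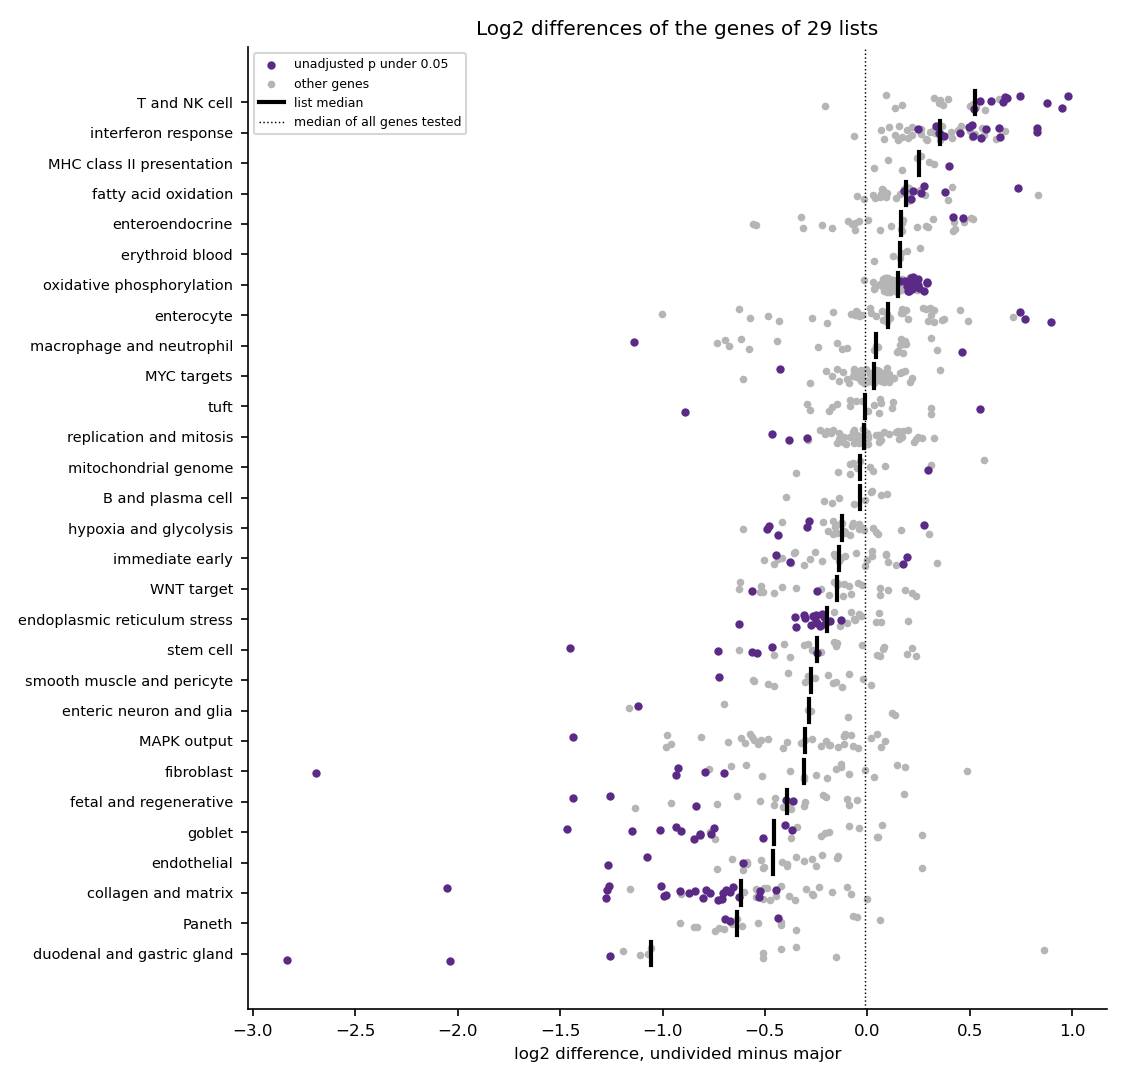
Log2 difference (undivided minus major) of each tested gene in 29 lists, ordered by the list median (black bars). Purple points have an unadjusted p under 0.05; the dotted line is the median of all 16510 genes. T and NK cell and interferon genes lie at the top, goblet, matrix and Paneth genes near the bottom.

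Goblet cell genes had lower medians in the undivided tumours of either mouse, more evenly in the female. Of 26 genes tested, 13 had an unadjusted p under 0.05 and a negative difference and none a positive one, and the list median was -0.46 (female -0.73, male -0.28). In the female alone all 26 were lower, 14 at that level, whereas in the male 8 of 26 were higher, with 3 genes at that level in each direction. Muc2, the main mucin of intestinal mucus, measured 2662, 8815 and 30379 normalised counts at the lowest, median and highest undivided tumour and 4099, 21216 and 43642 in the major clones. Its log2 difference was -1.15 (SE 0.27, adjusted p = 0.132), and 22 of 23 undivided tumours lay below the median of their own mouse. Reg4, a secreted lectin, had medians of 1823 and 4183 (-1.01, adjusted p = 0.17) and Spink4, a goblet cell peptide, 6109 and 11301 (-0.93, adjusted p = 0.226). Atoh1, the transcription factor that commits cells to the secretory fate, had medians of 152 and 223 (-0.51, adjusted p = 0.313), with -0.88 in the female and -0.19 in the male. The list was not uniform, since Clca1 and Zg16, also goblet products, had differences of 0.27 and 0.069. Without the libraries over 10% Rn18s the list median was -0.36, and with undivided tumours 1 to 10 it was -0.43. In bulk tissue, fewer goblet cells and less RNA per goblet cell cannot be told apart.

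Genes that fold secreted proteins in the endoplasmic reticulum also had lower medians in either mouse. Chaperones such as Hsp90b1 and Hspa5, and disulphide isomerases such as Pdia3 and Pdia6, are raised together by the unfolded protein response when the load of secreted protein grows. Of 28 genes, 16 (57.1%) had an unadjusted p under 0.05 and were lower, none was higher at that level, and the median was -0.20 (female -0.22, male -0.17). It was -0.13 without the libraries over 10% Rn18s, with 10 genes at that level, and 10 of 28 genes were higher in the male. Hsp90b1 ranged from 7436 to 15434 normalised counts in the undivided tumours, with a median of 11319, and from 10152 to 19288 with a median of 14135 in the major clones (log2 difference -0.30, SE 0.068, adjusted p = 0.132). Pdia6 had medians of 4747 and 5813 (-0.31, SE 0.072, adjusted p = 0.132). For either gene 21 of 23 undivided tumours lay below their own mouse's median. The differences were small but the spread between tumours was also small: the mean log2 level of the list had an SD of 0.23 over the undivided tumours and 0.14 over the major clones. Dnajb9 and Derl1, also in the list, had differences of 0.20 and 0.044. Plasma cells and goblet cells secrete heavily and use the same genes. The summed level of the 10 B and plasma cell genes ranged from 9941 to 193888 normalised counts in the undivided tumours and from 10884 to 142226 in the major clones, with medians of 46897 and 46402, and its part in the result was not tested. Of these genes, 4 of 10 were higher and the median was -0.037, or 0.017 after quantile normalization. Without the libraries over 10% Rn18s 0 of 10 were higher (median -0.23), and 0 of 10 with undivided tumours 1 to 10 (-0.16). With segment as a further covariate 6 of 10 were higher (0.037). By mouse, 0 of 10 were higher in the female (median -0.43) and 8 of 10 in the male (0.31).

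Some promoters of this list hold a known element, and 2 are shown because Hsp90b1 and Pdia6 were among the 6 lowest-p genes that were lower in the undivided tumours. The endoplasmic reticulum stress element was searched as CCAAT, any 9 bases and CCACG, on both strands of the window from 250 bases before to 50 bases after each gene's start in RefSeq (GRCm38.p6). It was present in 7 of the 24 listed genes that matched by symbol and in 37 of all 27025 genes (0.137%). The 7 were Hsp90b1, Pdia6, Calr, Canx, Creld2, Hspa5 and Dnajc3, whose log2 differences ran from -0.13 to -0.31. Capitals mark the element, read 5′ to 3′ on the strand of the gene; the Hsp90b1 window (chr10:86705395-86705694, minus strand) holds it 2 times, once on each strand, and the Pdia6 window (chr12:17266339-17266638, plus strand) 1 time.
Hsp90b1: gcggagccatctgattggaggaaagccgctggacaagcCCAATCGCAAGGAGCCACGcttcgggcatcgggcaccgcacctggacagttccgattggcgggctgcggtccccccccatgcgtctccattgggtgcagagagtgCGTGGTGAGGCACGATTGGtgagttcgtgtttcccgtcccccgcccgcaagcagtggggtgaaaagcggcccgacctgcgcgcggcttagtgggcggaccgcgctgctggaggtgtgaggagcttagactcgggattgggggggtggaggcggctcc
Pdia6: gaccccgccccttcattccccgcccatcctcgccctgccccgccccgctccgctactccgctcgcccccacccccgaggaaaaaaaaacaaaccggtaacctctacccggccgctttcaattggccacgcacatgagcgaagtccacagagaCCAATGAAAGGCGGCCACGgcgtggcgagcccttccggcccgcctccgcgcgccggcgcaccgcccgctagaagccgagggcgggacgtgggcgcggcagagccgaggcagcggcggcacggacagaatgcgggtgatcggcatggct

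Other secretory lineages were less even. Paneth cells make antimicrobial peptides at the crypt base. Of 19 Paneth genes 18 were lower, 3 of them at an unadjusted p under 0.05, and the median was -0.64, with -1.07 in the female and -0.18 in the male. Lyz1, lysozyme, measured 7278, 35415 and 110905 normalised counts at the lowest, median and highest undivided tumour and 31166, 51543 and 119987 in the major clones (log2 difference -0.67, SE 0.22, adjusted p = 0.281). Several Paneth genes are alpha-defensins, near-identical copies between which reads may have been split. Enteroendocrine genes had 19 of 30 higher and a median of 0.17, but -0.26 in the female and 0.50 in the male, and 0.031 without the libraries over 10% Rn18s. By segment the enteroendocrine median was 0.38 in SI10 alone and -0.083 in SI20 alone. Chga and Chgb, granins of hormone granules, had differences of 0.17 and 0.061 (adjusted p = 0.734 and 0.903). Of 20 tuft cell genes, 10 were higher, with a median of -0.012, or 0.074 after quantile normalization. Genes of duodenal and gastric glands had a median of -1.05 over 13 genes, of which 12 were lower and 3 had an unadjusted p under 0.05. A4gnt, which makes the glycan of gland mucins, had medians of 15.5 and 83.6 (-2.04, SE 0.62, adjusted p = 0.254), and Aqp5, a water channel of Brunner's glands, 157 and 601 (-2.84, SE 1.02, adjusted p = 0.327). A4gnt was listed at 0 in 2 undivided tumours, and Aqp5 at 0 in libraries of both classes. The median of this list was -1.02 in SI10 alone and -0.66 in SI20 alone, but only -0.094 without the libraries over 10% Rn18s.

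Stromal genes had lower pooled medians in the undivided tumours. All 46 genes of the collagen and matrix list had a negative difference, 23 of them (50%) at an unadjusted p under 0.05, and the median was -0.61. By mouse it was -0.26 in the female and -1.01 in the male, and without the libraries over 10% Rn18s it was -0.39, with 6 genes at that level. The summed level of the list ran from 14672 to 95806 normalised counts in the undivided tumours (median 35982) and from 18289 to 101283 in the major clones (median 54749), so the classes overlapped along most of the range. By the mean log2 level of the list, male undivided tumours 4, 17 and 5 were the lowest. Postn, the matrix protein periostin, had medians of 21.0 and 72.4 (log2 difference -2.05, SE 0.56, adjusted p = 0.229), and Fstl1, a secreted glycoprotein, 1247 and 2005 (-0.77, adjusted p = 0.279). Fibroblast genes had a median of -0.31, with 19 of 23 lower and 5 at an unadjusted p under 0.05, and were at -0.089 in the female and -0.56 in the male. Grem1, a BMP antagonist of the stem cell niche, had medians of 9.71 and 114 (-2.69, SE 0.89, adjusted p = 0.279), with -2.60 in the female and -2.78 in the male. Grem1 was listed at 0 in libraries of both classes, and Postn in undivided tumours only. Endothelial genes had a median of -0.46, with 21 of 22 lower and 3 at an unadjusted p under 0.05, but the median was -0.0097 in the female, where 10 of 22 were higher, and -0.73 in the male. Without the libraries over 10% Rn18s it was -0.17. Flt1, a receptor for vascular endothelial growth factor, had medians of 515 and 1135 (-1.27, SE 0.33, adjusted p = 0.206), and all but 2 undivided tumours lay below their own mouse's median. Smooth muscle genes (median -0.27, 15 of 16 lower) and nerve and glial genes (median -0.28, 6 of 8 lower) each had 1 gene at an unadjusted p under 0.05, and the nerve and glial median was 0.048 in the female. These lists moved with Rn18s: with its share as a covariate, the matrix median was -0.25, the endothelial median -0.11 and the fibroblast median -0.034, and the smooth muscle median was 0.036. Whether Rn18s had a part in these differences was not tested.

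Interferon response genes and T and NK cell genes had higher medians in the undivided tumours of either mouse, which B and plasma cell genes, given above, did not. Of 49 interferon response genes 48 were higher, 15 (30.6%) of them at an unadjusted p under 0.05, and the median was 0.35 (female 0.28, male 0.38). Irf9, the DNA-binding part of the interferon-stimulated complex, measured 735, 1047 and 1639 normalised counts at the lowest, median and highest undivided tumour and 609, 822 and 1147 in the major clones. Its log2 difference was 0.35 (SE 0.087, adjusted p = 0.133), and 19 of 23 undivided tumours lay above their own mouse's median. The highest mean level of the list, 10.35 on the log2 scale, was that of male undivided tumour 2; the highest major clone was at 8.98. T and NK cell genes had the highest median of all lists, 0.52 (female 0.30, male 0.77), with 23 of 24 higher and 10 (41.7%) at an unadjusted p under 0.05. In the female alone 1 of 21 tested was at that level, and in the male alone 12 of 24. Trac, the T cell receptor alpha constant gene, had medians of 97.4 and 55.9 (0.75, SE 0.21, adjusted p = 0.229), and Cd3d, part of the receptor complex, 60.5 and 28.2 (0.95, SE 0.27, adjusted p = 0.247). Cd4 alone was lower, at -0.21. The summed T and NK level ranged from 1480 to 11574 normalised counts in the undivided tumours and from 1098 to 4652 in the major clones, and Cd3e, a defining marker, was above 0 in every library. Both lists depended on the libraries used: without those over 10% Rn18s the medians were 0.18 for interferon genes and 0.17 for T and NK genes, and in SI20 alone 0.16 for each. All 8 genes of MHC class II presentation were higher (median 0.25, 1 at an unadjusted p under 0.05), but the median was -0.059 in the female, and without the libraries over 10% Rn18s 7 of 8 were lower (median -0.10). Macrophage and neutrophil genes had a median of 0.044, with 14 of 25 higher, but -0.045 when each library was scaled to the same sum. In the female 23 of 25 were higher (median 0.24) and in the male 10 of 25 (-0.14).

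The interferon-stimulated response element, searched as GAAA, any 2 bases and GAAA, on both strands of the same promoter windows, was present in 18 of 34 matched interferon genes and in 1079 of 27025 genes (3.99%). The log2 differences of these 18 ran from 0.082 (Ddx58) to 0.83 (Isg15). Among the 18, Gbp3 and Isg15 alone had an unadjusted p under 0.05, whereas 15 of the 49 tested genes of the list did. Irf9 was not among the 18. Isg15, a ubiquitin-like protein and a classical interferon target, is shown because it held 3 overlapping copies and had the largest difference in the list (0.83, SE 0.40, unadjusted p = 0.0448, adjusted p = 0.406). Capitals mark the copies in the window chr4:156200769-156201068 (GRCm38.p6, minus strand).
Isg15: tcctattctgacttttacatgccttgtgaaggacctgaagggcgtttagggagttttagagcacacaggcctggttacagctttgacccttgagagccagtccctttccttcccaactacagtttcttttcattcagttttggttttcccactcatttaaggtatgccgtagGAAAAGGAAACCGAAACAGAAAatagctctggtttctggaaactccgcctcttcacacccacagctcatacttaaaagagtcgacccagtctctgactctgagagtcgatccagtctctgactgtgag

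Several programmes had list medians of opposite sign in the 2 mice, some of them small in the female, and the pooled medians describe neither mouse. Fetal and regenerative genes, which mark repairing epithelium, had a median of -0.39, with 23 of 24 lower, but 0.057 in the female and -0.97 in the male. Male undivided tumours 18, 17 and 15 were the lowest of all libraries, and the pooled median was -0.20 with undivided tumours 1 to 10 and -0.066 without the libraries over 10% Rn18s. Anxa1, a fetal marker, measured 1029 to 13244 normalised counts in the undivided tumours and 2841 to 13258 in the major clones, with differences of 0.44 in the female and -1.09 in the male. Genes of RAS-MAPK output had a median of -0.31 (0.11 in the female, -0.65 in the male) and 31 of 35 were lower, but without the libraries over 10% Rn18s 24 of 35 were higher (median 0.044). Nuclear genes of oxidative phosphorylation were higher in 75 of 76 cases, 19 (25%) at an unadjusted p under 0.05, with a median of 0.15. That median was -0.010 in the female and 0.31 in the male, and it was 0.058 when each library was scaled to the same sum and 0.063 without the libraries over 10% Rn18s. Fatty acid oxidation genes had 29 of 31 higher and a median of 0.19, with -0.075 in the female and 0.42 in the male, and 0.060 without those libraries. Enterocyte genes had a median of 0.10, with -0.19 in the female, 0.42 in the male and 0.0044 without those libraries. Their median also changed sign with the segment, at 0.43 in SI10 alone and -0.16 in SI20 alone. The 13 protein genes of mitochondrial DNA had a median of -0.035 (female -0.22, male 0.19), and 6 erythroid genes a median of 0.16 (female -0.26, male 0.53). Immediate early genes, which respond to handling, had a median of -0.14, with 22 of 31 lower, but 0.078 in the female, -0.28 in the male and 0.052 without the libraries over 10% Rn18s. MYC targets had a median of 0.030, with 39 of 66 higher and 1 lower at an unadjusted p under 0.05, and -0.059 when each library was scaled to the same sum. Of them 54 were higher in the female (median 0.12) and 17 in the male (-0.083). Replication and mitosis genes had a median of -0.019 with 31 of 55 lower, and 0.10 in the female and -0.10 in the male. Without the libraries over 10% Rn18s 42 of these 55 were higher (median 0.094). In SI20 alone 50 of 55 were higher (0.17), and in SI10 alone 17 of 55 (-0.096). A test of whether each gene's difference varied with the mouse (limma interaction) called 0 of 16510 genes, with 1922 at an unadjusted p under 0.05 and a lowest adjusted p of 0.205. Among the genes with the smallest p, Pkdcc had -0.76 in the female and 0.24 in the male, and Cav2, a caveolar protein, 0.50 and -1.27.

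**Figure D4:**
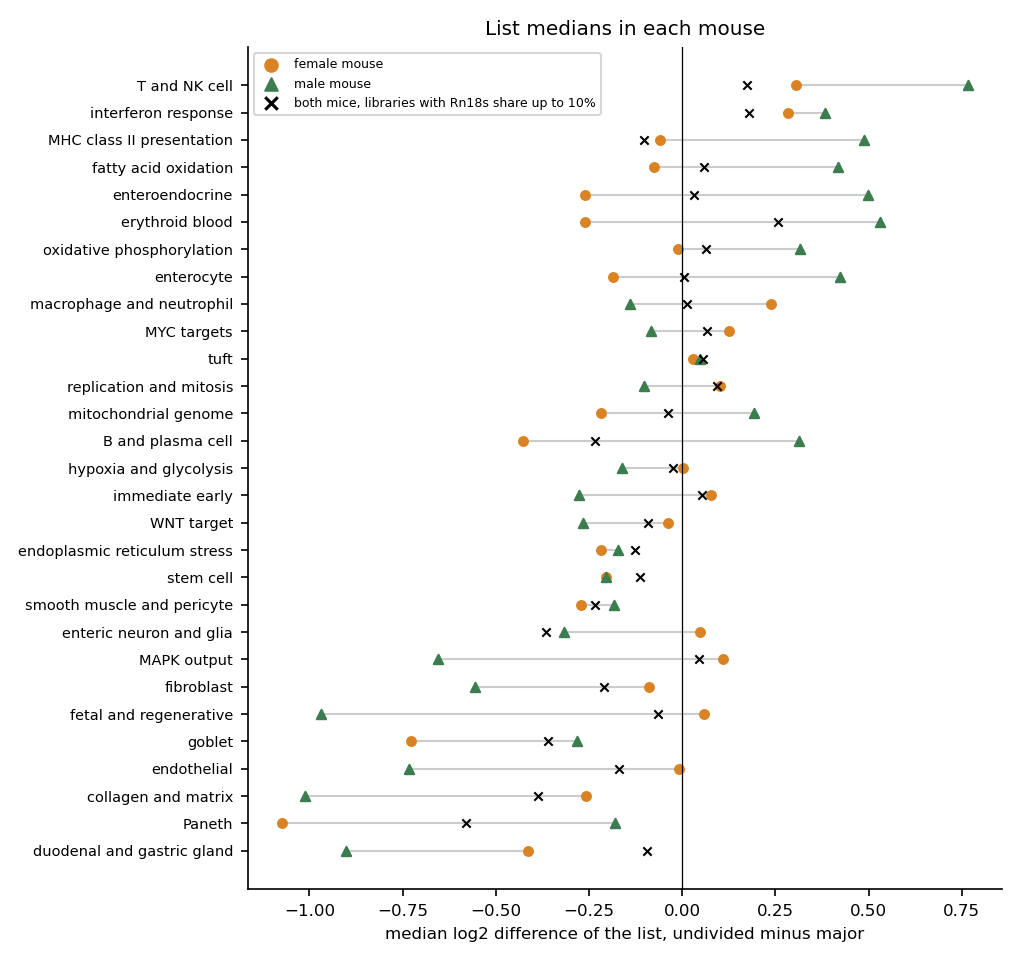
Median log2 difference (undivided minus major) of each list in the female (circles), in the male (triangles) and in both mice without the libraries over 10% Rn18s (crosses). Goblet, endoplasmic reticulum stress, interferon and T and NK lists lie on the same side of 0 in both mice; fetal, MAPK output and enteroendocrine lists lie on opposite sides.

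Genes of the stem cell compartment were lower on balance. Of 25 stem cell genes 18 were lower, 6 of them (24%) at an unadjusted p under 0.05, with a median of -0.25 (female -0.20, male -0.21). The median was -0.11 without the libraries over 10% Rn18s, with 3 genes at that level, and -0.11 with Rn18s as a covariate, with 2. Lgr5, the crypt base stem cell marker and a WNT target, measured 115, 675 and 3081 normalised counts at the lowest, median and highest undivided tumour and 249, 872 and 2818 in the major clones (log2 difference -0.63, SE 0.32, adjusted p = 0.428). WNT target genes had a median of -0.15, with 22 of 28 lower and 2 at an unadjusted p under 0.05, and -0.014 with Rn18s as a covariate. Notum, a secreted WNT inhibitor, had medians of 4482 and 4787 (-0.091, adjusted p = 0.88). Ephb3 and Ephb2, receptors that position crypt cells, had differences of -0.56 and -0.25 (adjusted p = 0.345 and 0.348). Neither list was uniform: 7 of the 25 stem cell genes and 6 of the 28 WNT target genes were higher. Ascl2 had the highest difference in both lists, at 0.24. Myc, the transcription factor, had medians of 2484 and 2367 (-0.057), Apc 2059 and 2247 (-0.23), Cdk4 6267 and 5281 (0.21) and Hdac2 2288 and 2375 (0.046). Mki67, a proliferation antigen, had medians of 2059 and 3113 (-0.46, SE 0.19, adjusted p = 0.361). That was the lowest difference in the replication and mitosis list, whose median was -0.019. In that list 24 of 55 genes were higher, up to 0.32 for Gins1. The Mki67 difference was -0.28 without the libraries over 10% Rn18s and -0.30 with Rn18s as a covariate. Hypoxia and glycolysis genes had a median of -0.12 with 27 of 33 lower, and -0.024 without the libraries over 10% Rn18s. Wnt3, a ligand made by Paneth cells, had a difference of -0.49 (adjusted p = 0.633), Gata6 of -0.0062 and Hpd of -0.54 (adjusted p = 0.335).

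The undivided tumours varied more among themselves than the major clones did. The mean absolute deviation of a library from the median of its class and mouse, over all genes on the log2 scale, was 0.51 ± 0.13 (SD, n = 23) in the undivided tumours and 0.42 ± 0.12 (SD, n = 20) in the major clones. Averaged over the mice, the difference was 0.084 (permutation within mice, two-sided, p = 0.0209); the test was chosen after the values were seen. With undivided tumours 1 to 10 it was 0.056 (permutation p = 0.127). The median deviation was 0.605 in the male undivided tumours, 0.44 in the female ones, and 0.39 in the major clones of each mouse. Male undivided tumours 18 and 15 had 0.80 and 0.75, and male major clone 19 had 0.78, and their Rn18s shares were 19.4%, 10.96% and 8.96%. By gene, 75.3% of genes had a larger spread in the undivided tumours, but limma called 0 of 16510, with 1030 at an unadjusted p under 0.05. Tff1, a gastric trefoil peptide listed at 0 in some undivided tumours, had mean deviations of 3.50 and 1.28 in the undivided tumours and major clones, and Foxo1, a transcription factor, 0.10 and 0.22 (adjusted p = 0.78 for each).

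**Figure D5:**
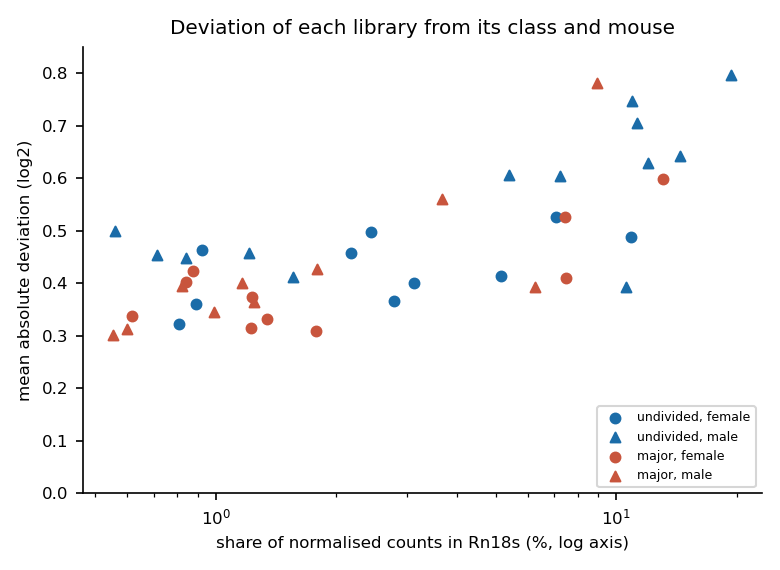
Mean absolute deviation of each library (log2) against its share of normalised counts in Rn18s (log axis), for undivided tumours (blue) and major clones (red) of the female (circles) and male (triangles). The highest deviations, 0.75 to 0.80, belong to 2 male undivided tumours and 1 male major clone.

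The minor clones of the same dissected tumours give a further reference. The undivided tumours enter both comparisons, so values are set side by side only. Against the 20 minor clones, limma called 375 of 16491 genes (2.27%) higher and 235 (1.43%) lower in the undivided tumours. Arl5a had a log2 difference of 0.39 (adjusted p = 0.011), against 0.40 for the major clones. Enterocyte genes had a median of 0.59 against minor clones and 0.10 against major clones, with 14 and 0 genes called. Enteroendocrine genes had 0.74 and 0.17, with 10 and 0 called, and Chgb had 0.95 (adjusted p = 0.0107) and 0.061. The goblet median was -0.083 against minor clones and -0.46 against major clones, and the difference of Muc2 was -0.44 and -1.15. Interferon genes had 0.38 and 0.35, T and NK genes 0.75 and 0.52, endoplasmic reticulum stress genes -0.10 and -0.20, and matrix genes -0.20 and -0.61. Whether the comparisons differ was not tested.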

How the data were processed

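Per the study's methods and the submitters' processing notes, polyA libraries from dissected tumours were checked with FastQC 0.11.9, trimmed with Trimmomatic 0.39, aligned to GRCm39 for quality control with STAR 2.7.7a and Picard 2.27.3, and quantified per gene with Salmon 1.9.0. The deposited signal is the authors' normalised counts, 1 column per library. The scaling factors are not given in the sources used here and the values are not whole numbers, so a count test could not be used and read depth is unknown.

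Genes averaging 10 or more across the libraries were kept (16510 of 24766), log2(value + 1) was taken, and limma 3.58.1 in R 4.3.3 was fitted with class and mouse, a mean-variance trend and Benjamini-Hochberg adjustment (threshold 0.05). Differences are undivided minus major on the log2(value + 1) scale, which understates those of low genes. Spread was the absolute deviation from the median of the class and mouse. Class share and mean deviation were tested with 100000 permutations within mice. P-values measure the spread between tumours of 2 mice. Libraries correlated at 0.847 to 0.971.

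The members and lists were chosen with earlier results of these data known. Named genes are those that passed, the 6 with the smallest p each way (predicted gene models left out), 20 genes the study names, up to 2 tested genes each way per list, and those leading the spread and interaction fits; genes named for a promoter, or as cell type markers, are the exceptions, and Isg15 was chosen after its values were seen. Some genes that this rule names, among them 1 that passed, are not reported here. Alternatives were pseudocounts of 0.1 and 5, no filter, a mean of 50, other scalings, trends, weights and covariates, subsets and each library left out. Fits without libraries over 10% Rn18s, and with that covariate in undivided tumours 1 to 10, were added after the data were seen. The scripts were tested on simulated data.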

Additional observations from a re-analysis of the deposited data

How the results depend on the processing

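The count of 2 genes depended on the processing. It was 0 without a filter, with libraries scaled to the same sum, without the mouse, with segment or Rn18s as a covariate, in SI10 and SI20 together or each alone, in each mouse alone, with undivided tumours 1 to 10 (with or without the Rn18s covariate) and without the libraries over 10% Rn18s; it was 1 after quantile normalization, 14 with array weights, and 0 to 25 when each library was left out. The 25 came without male undivided tumour 7 and included Pdia3, Pdia6, Hsp90b1, Calr and Hyou1; without male major clone 19 there were 8, among them Muc2. Unadjusted p under 0.05 held for 884 genes with the Rn18s covariate and 1031 without the high-Rn18s libraries, against 1973. The interaction count stayed at 0 in each alternative run; the spread count was 2 with no filter and 0 in the others. The class share of variance missed the threshold only with undivided tumours 1 to 10 (7.19%, permutation p = 0.062). The mean deviation missed it in the 1 alternative run, the same tumours (0.056, permutation p = 0.127). The medians of the goblet, endoplasmic reticulum stress, Paneth, matrix, stem cell, interferon and T and NK lists kept their sign in all alternatives run, at -0.73 to -0.28, -0.28 to -0.12, -1.07 to -0.18, -1.01 to -0.25, -0.34 to -0.095, 0.16 to 0.46 and 0.16 to 0.77. No paired analysis was possible because undivided tumours and major clones come from different tumours and share no tumour numbers. Precision is limited by 2 mice, unknown read depth and the uneven spread of high-Rn18s libraries between classes.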
